A study of Mus musculus with 3 samples.

Results

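The Tcf4 locus was described by the histone mark H3K4me3 in adult male mouse hippocampus, in a library from N171-82Q transgenic mice (HD) and a library from their wild-type littermates (WT). The members are all deposited peaks that overlap a fixed window of chromosome 18, positions 69450000 to 69900000 in build mm9, which holds Tcf4. That gave 13 of the 19631 HD peaks and 14 of the 18515 WT peaks. Joined where they overlapped, they formed 14 of 20211 regions, numbered 1 to 14 below in genome order. The window was chosen by the positions and widths of the peaks that these lists show there, so the values below describe it and nothing in it was tested.

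Both groups were C57/DBA F1 hybrid males, and each library came from whole hippocampi pooled from 3 mice, precipitated with a Millipore antibody against H3K4me3. N171-82Q mice carry a transgene for an N-terminal fragment of human huntingtin with an expanded polyglutamine tract, driven by the mouse prion protein promoter in addition to the native huntingtin genes. The hippocampus mixes neurons and glia, so fewer marked cells and less mark per cell cannot be told apart in such tissue. Input DNA from the series was not used here. Since each genotype had 1 library, a difference could not be held against replicate error. The files give no read counts, so depth is unknown.

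Tcf4 encodes a basic helix-loop-helix transcription factor of the E protein class, which binds E-box DNA as a dimer with itself or with partners such as the proneural factors. It differs from the Wnt pathway factor Tcf7l2, which has also been called TCF4. Loss of one copy of human TCF4 causes Pitt-Hopkins syndrome, an intellectual disability disorder, and the gene is known for many alternative first exons that give proteins with different N termini. H3K4me3 marks the start sites of active or poised genes, and wide domains of it often lie at genes that define a cell's identity.

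No annotation of mm9 was used here, so single peaks were assigned neither to a promoter nor to an exon or intron, and the labelled tissue was not checked against marker genes. In the order of genes of assembly GRCm38.p6 (names only), the protein-coding neighbours of Tcf4 are Mc2r, which encodes the adrenocorticotropic hormone receptor, on one side and Ccdc68 and Rab27b, which encodes a small GTPase of vesicle traffic, on the other.

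H3K4me3 in the window formed 3 broad regions and a set of short ones. Regions 1, 6 and 10 each had a mean covered length of at least 5 kb, and no other region there reached 3 kb in either library. The broad regions held 66.5% of the peak-covered length of the window in HD and 56.7% in WT. Regions 1 to 3, the second and the third of them weak and found in WT alone, lay within 37.7 kb. After a gap of 119 kb, regions 4 to 13 were packed into 114.2 kb. Neighbouring regions across the genome lay a median of 43.3 kb apart, whereas 9 of the 13 gaps in the window were under 14 kb. The longest of these 9 was 13.5 kb, and 22.6% of all gaps between neighbouring regions of the genome were shorter than it.

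**Figure D1:**
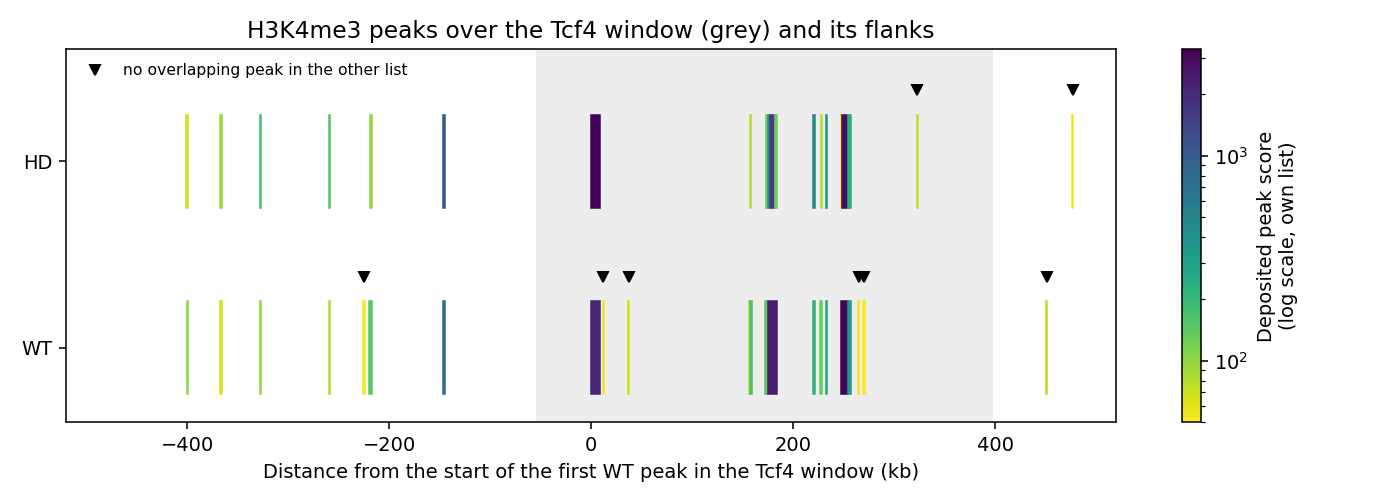
Peaks of the HD (upper row) and WT (lower row) lists by distance in kb from the start of the first WT peak in the window. Colour gives the deposited score on a log scale drawn alike for both lists, though scores rank peaks only within a list. Triangles mark peaks not overlapped by the other list, and outlines widen the narrowest peaks slightly. The dark, wide blocks are regions 1, 6 and 10, and the HD peak at about 323.0 kb and 4 pale WT peaks stand alone within the grey window.

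Region 1, on chromosome 18 at 69503195 to 69512303, was the longest of the window and nearly the same in both libraries. A single HD peak covered 9040 bp with a score of 3182.37, and a single WT peak covered 9062 bp with a score of 2130.00. The score is that of the peak caller and changes with the sequencing depth of a library, so peaks were ranked by it only within a list. Over all peaks the median score was 1144 in the HD list and 843 in the WT list. An alternative below applies the same minimum score to both lists. In the HD list 96 peaks scored higher and 23 were wider, and in the WT list 2254 scored higher and 41 were wider. The exact score 3100 was held by 2184 HD and 448 WT peaks, and what it stands for is not given. Those HD peaks count here as lower than region 1, and those WT peaks as higher. The ranks by score depend on that value and were not compared between the lists. The HD edge lay 47 bp outside the WT edge on the left and 69 bp inside it on the right. Its covered length in HD over that in WT gave a log2 ratio of -0.0035, and 68.4% of all shared regions had a lower ratio.

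Region 6, at 69678425 to 69687266, was divided in HD. There 3 HD peaks of 1764, 4723 and 1804 bp, with scores of 368.52, 1604.52 and 123.22, faced 1 WT peak of 8641 bp with a score of 2344.53. The HD peaks were separated by 157 and 94 bp and together covered 8291 bp, a log2 ratio of -0.06 against WT. Measured from the outer edges, the mark spanned 8542 bp in HD and 8641 bp in WT, so most of the difference in covered length was the gaps between HD peaks. The HD outer edge lay 300 bp inside the WT edge at the left end and 201 bp outside it at the right end, so one end was shorter and the other longer.

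Region 10, at 69750712 to 69757522, was divided in HD as well. A HD peak of 840 bp with a score of 51.44, close to the lowest score of 50.01 in that list, and one of 5506 bp with a score of 2866.68 were separated by 116 bp. The WT library had 1 peak of 6811 bp at the score 3100, a value that 448 WT peaks and 2184 HD peaks had in all. Covered length was 6346 bp in HD and 6811 bp in WT, a log2 ratio of -0.10. The HD outer edges lay inside the WT edges by 183 bp at the left end and 166 bp at the right end.

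**Figure D2:**
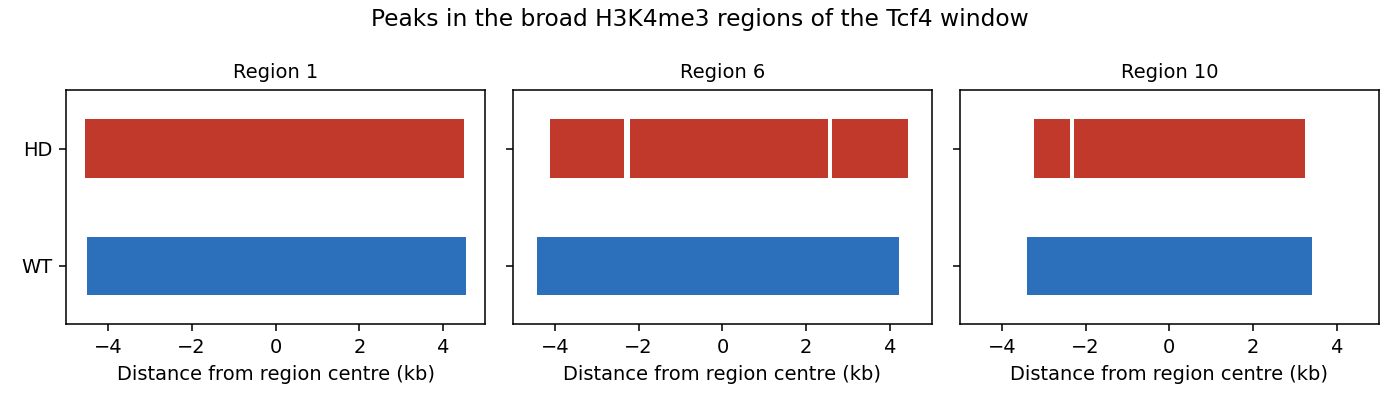
HD peaks (red, upper) and WT peaks (blue, lower) in regions 1, 6 and 10, by distance from the region's centre in kb. Region 1 is 1 peak in each library, whereas HD has 3 peaks in region 6 and 2 in region 10 where WT has 1.

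Peaks divided in HD thus occurred in 2 of the 9 shared regions of the window, beside 2.13% of the 17367 shared regions of the genome with more HD than WT peaks. Both were broad, and among the 676 shared regions of the genome with a mean length of 5 kb or more, 144 had more HD than WT peaks, 21.3%. The gaps of 157, 94 and 116 bp lay within the quartiles, 55 and 271 bp, of the 388 such gaps in the genome. Region 4, a short one, went the other way, with 2 WT peaks and 1 HD peak. Of the 17367 shared regions of the genome, 81 had fewer HD than WT peaks. In covered length the broad regions followed those elsewhere: their log2 ratios of -0.0035, -0.06 and -0.10 stood around a median of -0.07 over the 676 regions. Together they covered 23677 bp in HD and 24514 bp in WT, a difference of -3.41%.

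The other shared regions were 4, 5, 7, 8, 9 and 11, with 10733 bp in HD and 13427 bp in WT, a difference of -20.1%. HD covered less in 5 of these 6 and more in region 7. Counting the broad regions, HD covered less in 8 of the 9 shared regions of the window and more in 1, where 30.8% of all shared regions had more in HD. The median log2 ratio over the 9 was -0.11, beside -0.09 over all shared regions, whose quartiles were -0.22 and 0.03. A preponderance of shorter HD regions is thus the general state of these lists, and the window's median lay close to it.

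Regions 4 and 8 differed most. Region 4, at 69659853 to 69662529, had 1 HD peak of 1182 bp with a score of 81.63, against WT peaks of 862 and 1799 bp, 16 bp apart, with scores of 72.08 and 162.15. The HD edges lay 576 and 919 bp inside the outer WT edges, and the log2 ratio of covered length was -1.17, lower than in all but 0.109% of shared regions.

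Region 8, at 69729633 to 69731435, had a HD peak of 881 bp with a score of 78.54, against a WT peak of 1803 bp with a score of 131.25. Most of the missing length was on the left, where the HD edge lay 781 bp inside the WT edge, compared with 141 bp on the right. Its log2 ratio was -1.03. These were the 2 regions of the window that were over 1.5-fold shorter in HD, a call that 2.79% of all shared regions met. Both HD peaks had low scores in their list. Among HD peaks of like score, from 20% below to 25% above it, 42.4% of those like the peak of region 4 and 44.2% of those like the peak of region 8 were not overlapped by any WT peak. Among WT peaks of like score, this share was 3.28% for the longer peak of region 4, 31.1% for its shorter peak and 6.33% for the peak of region 8. What part the scores have in the differences of length was not tested. With peaks below a score of 100 left out of both lists, which removes 2870 HD and 2784 WT peaks at a value that need not mean the same in each, regions 4 and 8 held a WT peak and no HD peak. Without these 2 regions the other 7 shared regions covered 32347 bp in HD and 33477 bp in WT, a difference of -3.38%.

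Regions 7 and 9 lie on either side of region 8 and differed in opposite directions. Region 7, at 69722488 to 69725265, was the one shared region with more covered length in HD, with 2778 bp and a score of 448.38 in HD and 2189 bp and a score of 221.03 in WT. The gain was at the right edge, which lay 532 bp further out in HD, and the left edges differed by 57 bp. Its log2 ratio of 0.34 was higher than that of 96.9% of shared regions.

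Region 9, at 69735289 to 69737216, covered 1479 bp in HD, with a score of 352.03, and 1928 bp in WT, with a score of 260.96. Its log2 ratio was -0.38, and 9.27% of shared regions had a lower one. Here the HD edge lay 377 bp further in at the left end and 72 bp at the right end. In regions 8 and 9 the left edge therefore held most of the difference.

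Regions 5 and 11 adjoined the broad regions 6 and 10. Region 5, at 69675775 to 69677757, ended 667 bp before region 6 and covered 1842 bp in HD and 1983 bp in WT, a log2 ratio of -0.11. Its scores were 121.57 in HD and 142.05 in WT. Region 11, at 69757688 to 69760550, began 165 bp after region 10 and covered 2571 bp in HD and 2863 bp in WT, a log2 ratio of -0.16. Its scores were 240.09 in HD and 340.90 in WT. With peaks of a list within 1 kb merged, regions 5 and 6 became 1 region with 10384 bp in HD and 11291 bp in WT (log2 ratio -0.12), and regions 10 and 11 became 1 region with 9430 bp in HD and 9839 bp in WT (-0.06).

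**Figure D3:**
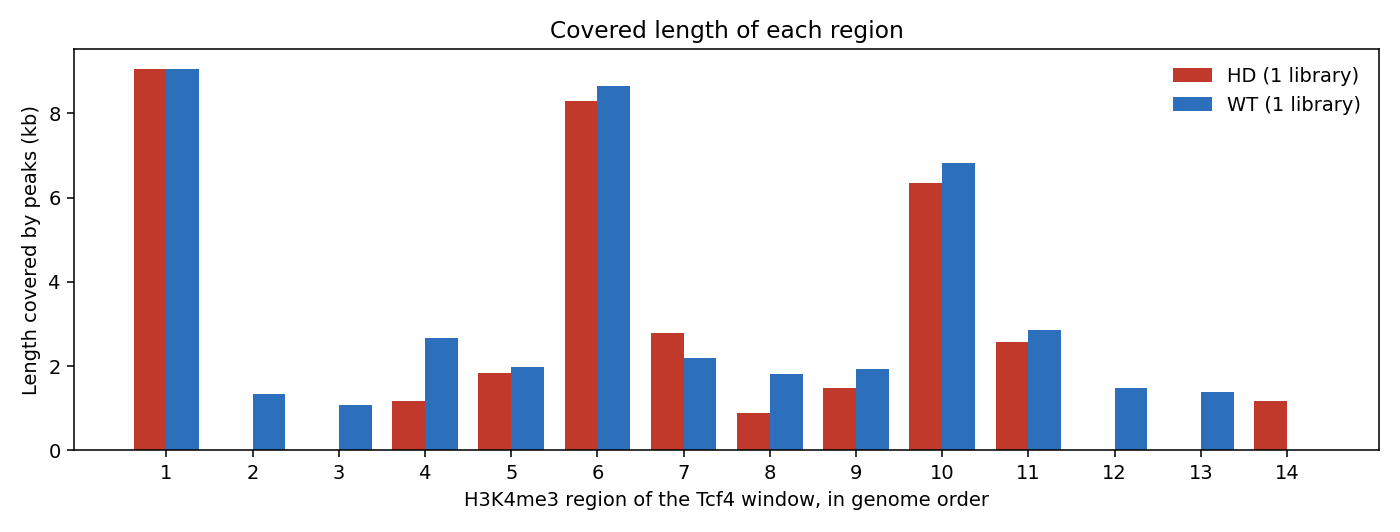
Length covered by peaks in kb in each of the 14 regions of the window, in genome order, for the HD library (red, left bar) and the WT library (blue, right bar); there are no replicates and hence no error bars. Regions 1, 6 and 10 are the tallest with 6346 to 9062 bp, among the shared regions 4 and 8 show the largest shortfall in HD, and regions 2, 3, 12, 13 (WT) and 14 (HD) have a single bar.

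In the 6 shared regions with 1 peak of each library (1, 5, 7, 8, 9 and 11), both HD edges lay inside the WT edges in 4. Over the 16873 such regions of the genome this held for 42.4%, and the median HD edge lay inward by 62 bp on the left and by 64 bp at the other end.

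**Figure D4:**
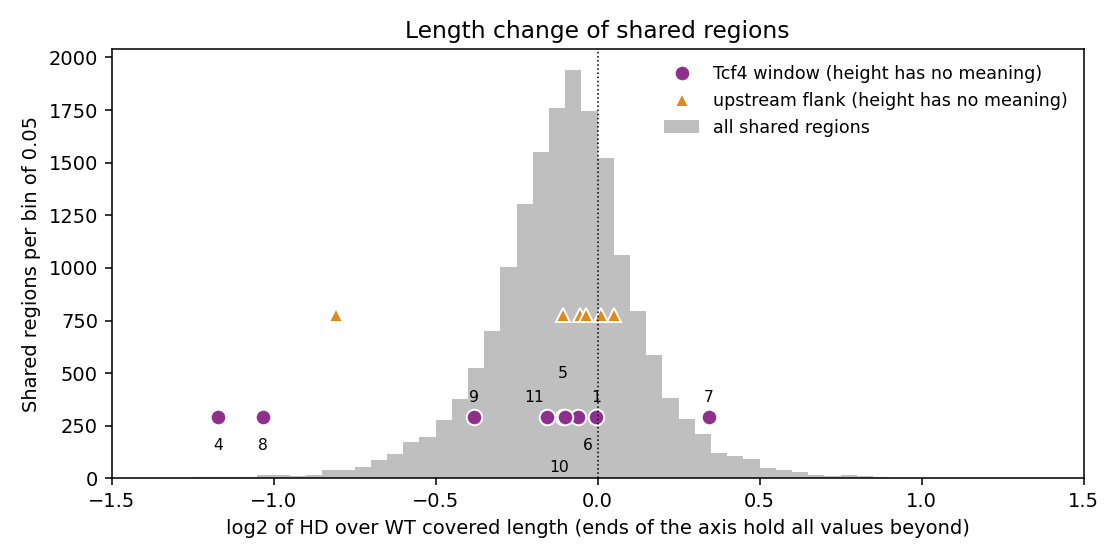
Histogram of the log2 ratio of covered length, HD over WT, for all 17367 shared regions, with the 9 shared regions of the window (circles, numbered) and the 6 of the upstream flank (triangles) placed at their ratios; the heights of the symbols carry no value. Regions 4 and 8 at -1.17 and -1.03 and a region of the upstream flank at -0.81 lie in the far left tail, and the others within the bulk or its shoulders.

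Peaks found in a single library were weak. Their share was above that of the whole list in WT but not in HD. The HD list had 1 such peak of 13, where 9.30% of all HD peaks had no WT counterpart. It made up region 14, at 69825664 to 69826835, with a width of 1172 bp and a score of 75.06, and no WT peak lay closer than 51.6 kb. The HD list held 1725 peaks of like score, and 45.9% of them had no counterpart.

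The WT list had 4 such peaks of 14, where 5.50% of all WT peaks had no HD counterpart. Region 2, at 69514574 to 69515923, had a score of 52.72 and lay 2.34 kb from the nearest HD peak. Region 3, at 69539852 to 69540921, had a score of 66.72 and lay 27.6 kb from one. Region 12, at 69767184 to 69768669, and region 13, at 69772703 to 69774090, had scores of 55.04 and 51.44 and followed the last HD peak of the cluster by 6.86 and 12.4 kb. These 4 were the WT peaks of the window with the lowest scores. Among WT peaks of like score to each, 34.8 to 44.5% lacked a counterpart.

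Within their own list, most peaks of the window were wide for their score. Of the HD peaks of the window, 10 of 13 were wider than the median of HD peaks of like score, and 7 were wider than 90% of them. For WT peaks these counts were 12 of 14 and 5. In the upstream flank 4 of 6 HD peaks and 5 of 7 WT peaks were wider than that median too, and 0 HD peaks and 1 WT peak were wider than 90% of their class. The window was chosen by the positions and widths of its peaks, so these counts describe it and the difference from the flank was not tested. The WT peak of region 6 was wider than 99.4% of its 2391 peers, and the peak of region 1 was wider than 99.5% of its peers in each list. The exceptions in HD were the peaks of regions 8 and 9, wider than 20.4% and 38.6% of their peers, and the small outer peak of region 10, at 29.1%. The exceptions in WT were the peak of region 3 and the shorter peak of region 4, at 35.5% and 8.84%.

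**Figure D5:**
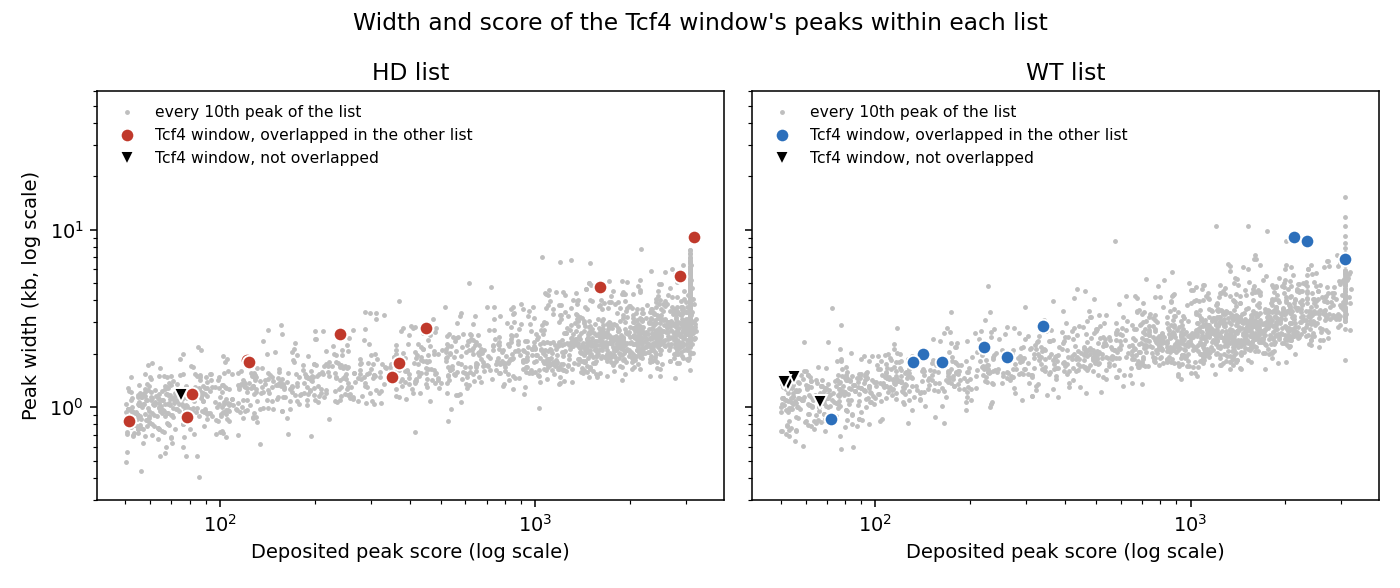
Peak width in kb against the deposited score (both log scales) for the HD list (left) and the WT list (right), with every 10th peak of the list in grey and the peaks of the window in colour. Most coloured points lie at the upper side of the grey band, and the peaks without a counterpart (triangles) lie at scores from 51.44 to 75.06.

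The flanks carried less of the mark. The upstream flank, positions 69000000 to 69450000, is as long as the window and had 6 HD and 7 WT peaks, none of them broad, which covered 8988 bp in HD and 11241 bp in WT. That is 1997 bp per 100 kb in HD and 2498 bp in WT, compared with 7907 bp in HD and 9608 bp in WT in the window. The downstream flank, positions 69900000 to 70000000, had 1 HD peak, at 69979333 to 69980358 with a score of 55.36, and 1 WT peak, at 69953620 to 69954723 with a score of 79.07, which lay 24.6 kb apart and had no counterpart. Shared regions numbered 9 in the window, 6 in the upstream flank and 0 in the downstream flank.

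The flank region with the highest scores was the last of the upstream flank, at 69356359 to 69359022, with 2474 bp and a score of 1031.51 in HD and 2664 bp and a score of 724.20 in WT, a log2 ratio of -0.11. It ended 91.0 kb before the window's edge, and the first region inside began 53.2 kb after that edge. At the other edge region 14 ended 73.2 kb inside, and the next peak, of the WT list, began 53.6 kb outside. No peak lay near either limit.

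A shortfall of covered length in HD of like size stood in the upstream flank. The peaks of the window covered 35582 bp in HD and 43235 bp in WT, a difference of -17.7%, and the upstream flank differed by -20.0%. Over chromosome 18 the difference was -4.40% and over all chromosomes -4.34%. In the flank a single short region made most of the difference among shared regions: at 69283773 to 69285941 there were 1238 bp in HD and 2169 bp in WT, a log2 ratio of -0.81, and the median over the 6 was -0.05. The remaining 4 shared regions of the flank, at 69102597 to 69104132, 69135860 to 69137315, 69175143 to 69176475 and 69243721 to 69245030, covered 1263 to 1402 bp in HD and 1268 to 1456 bp in WT, with log2 ratios between -0.05 and 0.05. The flank also held a peak found in WT alone, at 69277830 to 69278930 with a score of 51.76. In the window, -4122 of the -7653 bp came from peaks without a counterpart, -2694 bp from the shorter shared regions and -837 bp from the broad ones. Counting shared regions only, the window had 34410 bp in HD and 37941 bp in WT, a difference of -9.31%. Positions covered in both libraries made up 74.1% of those covered in either in the window, 74.9% in the upstream flank and 80.2% over all chromosomes.

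Few windows of 450 kb held as many broad regions as the Tcf4 window. It was chosen by the positions and widths of its peaks, so its rank is a description and not a test. Among 4243 windows of 450 kb laid end to end along the chromosomes, those with at least 1 peak and without the Tcf4 window, the median held 3 shared regions and no broad one, and 11 held at least 3 broad regions. In number of shared regions the Tcf4 window, with 9, was less apart, since 454 windows had at least as many. Its covered length was matched or passed in 143 windows in HD and 82 in WT. Its log2 ratio of covered length, -0.28, was matched or undercut in 631 of 4104 windows with peaks of both libraries, whose median was -0.08. Among the 1371 windows with at least 5 shared regions, a limit chosen after the data were seen, 54 had as low a ratio.

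The windows most like it, with 9 shared regions and the closest covered lengths, were those on chromosome 15 at 85500001 to 85950000, with 35794 bp in HD and 34897 bp in WT, on chromosome 11 at 119700001 to 120150000, with 47955 bp in HD and 45040 bp in WT, and on chromosome 9 at 106200001 to 106650000, with 30221 bp in HD and 34817 bp in WT. They held 1, 4 and 2 broad regions. In the first and second of these HD covered more than WT, with log2 ratios of 0.04 and 0.09, and in the window on chromosome 9 it covered less, with -0.20.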

How the data were processed

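The authors deposited 1 list of H3K4me3 peaks per library, with positions and a score per peak; the peak names carry the name of the caller MACS. Its version, settings and control were not given in the sources used here. Per the submitters' processing notes, CASAVA 1.8.2, BWA 0.5.9 and SAMtools were used with builds NCBIM37 and mm9, names of the same assembly. Scores ran from 50.01 to 3233.06 in both lists, and their unit is not named in the files.

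Positions were compared with Python 3.11.15 and numpy 2.4.6 and drawn with matplotlib 3.10.9, and are counted from 1. A counterpart is a peak of the other list that overlaps by at least 1 bp. Overlapping peaks were joined into regions, and covered length was compared as log2 of HD over WT. Peaks of like score are those of the same list from 20% below to 25% above a score. The code was tested on simulated lists. No p-value was computed. All peaks of the window and flanks are named, and, by rule, the 3 windows most like it. The members and lists were chosen with earlier results of these data known. No sequence is printed.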

Additional observations from a re-analysis of the deposited data

How the results depend on the processing

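Depth is unknown, which limits what the absence of a weak peak means. No paired analysis was possible because HD and WT have a single library each. Shared regions numbered 7 to 9, HD covered less in most of them, and their median log2 ratio stayed negative under all alternatives run. With peaks below a score of 100 dropped from both lists, WT peaks in the window numbered 9 (14 as deposited). Peaks without a counterpart then numbered 0 in HD and 2 in WT (1 and 4), and shared regions of the flanks 0.545 per 100 kb (1.09). Those 2 WT peaks were in regions 4 and 8, whose HD peaks scored below 100. Regions 2, 3, 12, 13 and 14, each found in a single library, held no peak at that minimum. With reciprocal overlap of 50%, 7 HD peaks had a counterpart (12), and 6 HD and 7 WT peaks had none. With 50% of the peak covered, 7 WT peaks had none. Regions with more HD than WT peaks numbered 1 (2) with that minimum score, with equal numbers of top scoring peaks and with peaks within 1 kb merged. Merging closed the HD gaps inside both divided broad regions, so neither division remained. The 1 region counted after merging was the join of regions 5 and 6, with 2 HD peaks and 1 WT peak. Its HD peaks were parted between regions 5 and 6, not within region 6. Of windows with at least 5 shared regions, an alternative added after seeing the data, 3.94% had a lower log2 ratio than the Tcf4 window, against 15.4% of all. Moving the window's edges by 50 kb changed no peak or region in it, which was fixed in advance because no peak lay that close to an edge. Of 124 values recomputed, 17 moved past 1.5 times or by over 0.1 on the log2 scale and none changed sign. Only the median log2 ratio could change sign, since the other values were counts, lengths, densities or percentages. The 124 include the unchanged counts and lengths from the moved edges. Causes were not tested.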
